A study of Homo sapiens with 2 samples.

Results

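The genes of cholesterol and fatty acid synthesis were compared between wild-type (WT) and MEIS2-/- cells by RNA-Seq. The set holds 30 of the 17397 genes in the deposited tables and was drawn up by pathway role, with earlier results of these data known. It comprises 18 enzymes of the sterol pathway, 5 genes that regulate the pathway or carry sterol, and 7 genes of fatty acid synthesis and desaturation. All 30 were found through their NCBI Gene number, and every one was above 5 FPKM in both libraries. Most sterol enzymes were lower in MEIS2-/- cells, 16 of 18, and INSIG1 showed the largest difference of the set, at 100.91 FPKM in WT cells against 24.54 FPKM in MEIS2-/- cells. Of the 7 fatty acid genes, 5 were lower and 2 higher. SCD was at 433.77 FPKM against 205.57 FPKM, and ELOVL6 at 19.22 FPKM against 38.61 FPKM.

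Cells make cholesterol from acetyl-CoA. The early steps build mevalonate and then the isoprenoid units that are also used for protein prenylation, dolichol and ubiquinone, and the later steps join them to squalene, close the rings and trim the sterol. Fatty acids start from the same acetyl-CoA, which is carboxylated, extended to palmitate, and then elongated and desaturated. Many genes of both branches are switched on by the SREBP transcription factors, which are held in the endoplasmic reticulum by SCAP and INSIG proteins while sterol is plentiful and are released to the nucleus when sterol is scarce. SREBPs bind promoters together with NF-Y and Sp1. SREBP2 is best known for the sterol genes and SREBP1 for the fatty acid genes.

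The data comprised 2 libraries, 1 per genotype, from H1, an established human embryonic stem cell line, at day 4 of hematopoietic differentiation. Both cultures had been given 50 ng/ml activin A with 40 ng/ml BMP4 for 2 days and 40 ng/ml VEGF with 50 ng/ml bFGF for the following 2 days. The WT library is from H1 itself and the MEIS2-/- library from H1 cells in which MEIS2, a homeodomain transcription factor of the TALE class, was disrupted with CRISPR/Cas9. Such lines were grown from individual cells after lentiviral delivery of Cas9 and guide and puromycin selection, and the labels do not say which clone was sequenced or that the WT cells went through the same steps. MEIS2 mRNA was at 10.85 FPKM in WT and 3.44 FPKM in MEIS2-/- cells, 31.7% of the WT level, and this level does not by itself show how much protein was left.

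FPKM is a fragment count divided by transcript length and by the library's total, so levels of different genes can be set side by side. Log2 fold changes are log2 of MEIS2-/- over WT after 0.1 FPKM was added to each value, and a difference of at least 2-fold was counted. With 1 library per genotype there is no replicate, no error and no test, so every difference below describes these 2 libraries. The median log2 ratio was 0.12 over genes of at least 5 FPKM in each library, so a typical gene sat slightly above 0. The sums of FPKM were 447542 in WT cells and 440651 in MEIS2-/- cells. Of the markers of the intended cells, the vascular receptor gene KDR was at 323.77 FPKM in WT and 61.98 FPKM in MEIS2-/- cells, CD34 at 21.80 FPKM and 11.36 FPKM, and the blood cell gene PTPRC at 0.45 FPKM and 0.89 FPKM.

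Promoter sequences of 7 members are shown, because SREBPs act with NF-Y at promoters and these genes differed in both directions. In MEIS2-/- cells INSIG1, HMGCS1, MSMO1 and MVD were lower by 2-fold or more, TM7SF2 and PMVK were the sterol enzymes that were higher, and SREBF2 encodes the SREBP best known for this pathway. Each run holds the 200 bases before the annotated start in the first window that RefSeq lists for the gene on GRCh38.p14, read 5′ to 3′ in the direction of transcription. Capitals mark CCAAT, the NF-Y box, or its reverse complement, and in SREBF2 also the sterol regulatory element core TCACNCCAC. The runs shown are INSIG1 at chr7:155297678-155297877 on the plus strand, HMGCS1 at chr5:43313413-43313612 on the minus strand, MSMO1 at chr4:165327469-165327668 on the plus strand, MVD at chr16:88663092-88663291 on the minus strand, TM7SF2 at chr11:65111672-65111871 on the plus strand, PMVK at chr1:154936720-154936919 on the minus strand, and SREBF2 at chr22:41832905-41833104 on the plus strand.
INSIG1: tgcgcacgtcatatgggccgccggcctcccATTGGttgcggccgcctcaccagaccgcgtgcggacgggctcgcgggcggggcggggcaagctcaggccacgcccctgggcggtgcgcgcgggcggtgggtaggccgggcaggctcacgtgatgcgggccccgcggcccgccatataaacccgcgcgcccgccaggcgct
HMGCS1: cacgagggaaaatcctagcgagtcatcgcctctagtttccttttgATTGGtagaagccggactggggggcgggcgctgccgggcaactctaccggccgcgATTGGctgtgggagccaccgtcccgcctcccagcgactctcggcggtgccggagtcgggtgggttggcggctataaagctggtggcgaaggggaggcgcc
MSMO1: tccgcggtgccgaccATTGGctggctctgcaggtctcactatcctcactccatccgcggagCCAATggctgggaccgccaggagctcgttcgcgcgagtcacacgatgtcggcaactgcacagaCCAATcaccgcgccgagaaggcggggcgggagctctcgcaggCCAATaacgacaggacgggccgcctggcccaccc
MVD: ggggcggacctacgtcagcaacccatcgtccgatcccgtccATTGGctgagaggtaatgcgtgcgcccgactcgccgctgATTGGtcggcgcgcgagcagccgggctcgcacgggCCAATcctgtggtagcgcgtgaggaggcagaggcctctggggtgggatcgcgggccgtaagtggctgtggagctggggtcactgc
TM7SF2: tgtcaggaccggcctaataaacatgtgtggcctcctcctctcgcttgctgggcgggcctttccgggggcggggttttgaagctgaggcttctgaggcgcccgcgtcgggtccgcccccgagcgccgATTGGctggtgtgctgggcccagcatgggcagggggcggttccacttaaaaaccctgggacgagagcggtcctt
PMVK: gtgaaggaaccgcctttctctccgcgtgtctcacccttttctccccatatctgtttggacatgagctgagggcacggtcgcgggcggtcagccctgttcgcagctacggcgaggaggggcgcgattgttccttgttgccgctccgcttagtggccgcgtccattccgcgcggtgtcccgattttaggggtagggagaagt
SREBF2: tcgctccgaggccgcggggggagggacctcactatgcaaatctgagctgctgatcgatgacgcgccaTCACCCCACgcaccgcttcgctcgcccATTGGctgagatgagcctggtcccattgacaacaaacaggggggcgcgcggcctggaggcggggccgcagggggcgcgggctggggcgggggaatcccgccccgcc

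The MSMO1 run holds 4 NF-Y boxes, MVD 3 and HMGCS1 2, whereas INSIG1, TM7SF2 and SREBF2 each hold 1 and PMVK holds 0. These runs were picked by fold change, so no relation between box number and level is to be read from them. The windows with most boxes, 5 each, were those of MVK and NSDHL, which kept 79.7% and 85.4% of their WT level. RefSeq windows, which span 250 bases before to 50 bases after a start, were found for 26 of the 30 members, 35 windows in all. ACAT2, FDFT1, SQLE and FASN had none. CCAAT was present on either strand in 24 of the 35 member windows (68.6%), against 34.6% of all 35116 windows and 35.3% of the 8414 windows of genes reaching 10 FPKM in either library. By gene, 20 of the 26 members held it in at least 1 window (76.9%), beside 44.4% of the 5721 genes at 10 FPKM or more. These were 13 of 15 sterol enzymes (86.7%), 3 of 5 regulators (60.0%) and 4 of 6 fatty acid genes (66.7%). The Sp1 box GGGCGG was in 31 of 35 member windows (88.6%), against 70.5% of the windows of genes at 10 FPKM or more, so it was common in both. TCACNCCAC was in 1 member window, that of SREBF2, against 1.2%, and the E-box CACGTG was in 5 (14.3%), against 10%. SC5D held the E-box in both of its windows. By gene it was in 4 of 26 members (15.4%), close to the 13.6% of genes at 10 FPKM or more. Both strands were searched for all 4 motifs. In the 35 member windows, 0 pairs of different motifs overlapped. A match describes the letters only. It does not show binding, and a window without a match says nothing about the factor.

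Of the 30 genes, 24 were lower in MEIS2-/- cells and 6 were higher. At least 2-fold lower were 8 members, INSIG1, HMGCS1, MSMO1, STARD4, IDI1, MVD, SCD and SQLE, and 1, ELOVL6, was at least 2-fold higher. Among the 13075 genes reaching 1 FPKM in either library, 7.97% were at least 2-fold lower and 7.84% at least 2-fold higher. All members are well expressed, so the 6902 genes reaching 10 FPKM in either library form the closer background, and there the shares were 6.24% and 5.16%. The median log2 fold change of the members was -0.65, against 0.12 over either background. Below 0 were 80.0% of the members and 40.6% of the 13075 genes. The sterol enzymes had a median of -0.70, the regulators and sterol transport -0.20 and the fatty acid genes -0.24. Without members that have named pseudogenes or overlapping genes, the regulators' median was -0.69 and that of the fatty acid genes 0.26, a change of sign. At a 1.5-fold line, 11 of 18 sterol enzymes were lower and 2 higher, beside 14.5% and 18% of the 13075 genes.

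**Figure D1:**
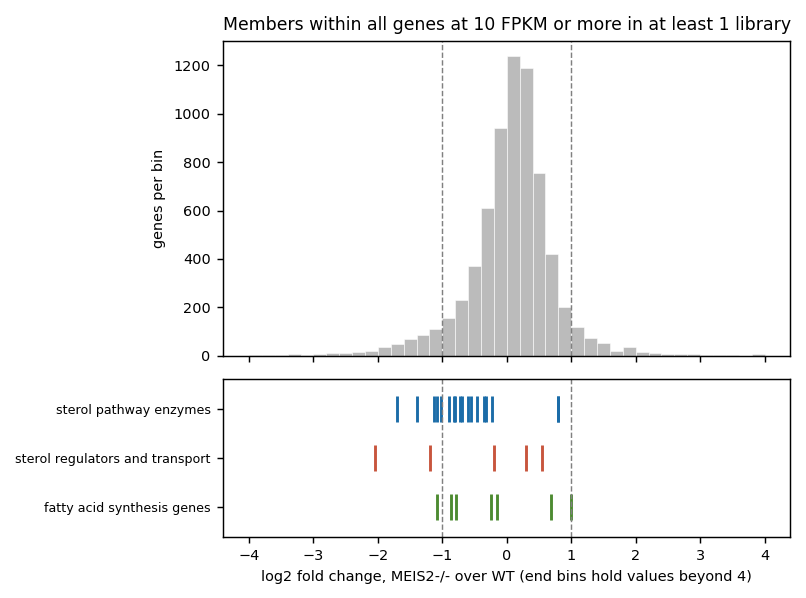
The upper panel counts the 6902 genes reaching 10 FPKM in either library by log2 fold change of MEIS2-/- over WT, and the lower panel marks each member, with dashed lines at 2-fold. Most sterol enzymes lie left of the main peak, with 16 of 18 below 0 and 2 above. Of the fatty acid genes, 5 of 7 lie below 0 and 2 above.

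The mevalonate steps were lower in the MEIS2-/- library for 6 of 7 enzymes, beside 40.6% of all genes compared. Their summed level was 797.93 FPKM in WT and 461.01 FPKM in MEIS2-/- cells. HMGCS1, the cytosolic synthase that makes HMG-CoA, differed most, with 122.54 FPKM in WT and 37.31 FPKM in MEIS2-/- (log2 fold change -1.71). Only 2.0% of the genes at 10 FPKM or more had a log2 fold change as low. ACAT2, the thiolase that supplies acetoacetyl-CoA one step earlier, was at 129.63 FPKM and 101.84 FPKM (log2 fold change -0.35). The synthase and the thiolase were thus almost level in WT cells, and in MEIS2-/- cells HMGCS1 was the lower of the pair.

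The kinases and decarboxylase that follow differed among themselves. MVK, mevalonate kinase, was at 33.45 FPKM in WT and 26.67 FPKM in MEIS2-/- cells. PMVK, which adds the next phosphate, was the opposite, at 10.61 FPKM and 18.40 FPKM (log2 fold change 0.79). MVD, which forms isopentenyl diphosphate, was at 178.32 FPKM and 84.58 FPKM (log2 fold change -1.08). The level of MVD was therefore 16.81 times that of PMVK in WT cells and 4.6 times in MEIS2-/- cells. IDI1, the isomerase of isopentenyl diphosphate, was at 49.36 FPKM and 22.52 FPKM (log2 fold change -1.13). FDPS, which makes farnesyl diphosphate, kept 61.9% of its WT level, at 274.02 FPKM and 169.69 FPKM. Of these 7 enzymes 3 were at least 2-fold lower, beside 6.24% of genes reaching 10 FPKM, and PMVK was the 1 that was higher.

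From squalene onward, 10 of 11 enzymes were lower in MEIS2-/- cells, beside 40.6% of all genes compared. Their summed level went from 1112.56 FPKM to 686.24 FPKM. FDFT1, squalene synthase, the first enzyme committed to sterols, was the highest sterol enzyme in both libraries, at 334.25 FPKM in WT and 178.76 FPKM in MEIS2-/- cells. Its log2 fold change of -0.90 became -1.02 with the libraries centered on the median gene, whose log2 ratio was set to 0. SQLE, squalene epoxidase, was at 99.86 FPKM and 49.36 FPKM (log2 fold change -1.02), just past the 2-fold line. LSS, which closes the rings to lanosterol, was at 85.01 FPKM and 57.89 FPKM. These 3 consecutive enzymes were all lower, by different amounts.

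The enzymes that remove methyl groups from lanosterol were all lower, unlike the C14 reductases that act between them. CYP51A1, which removes the first methyl group, was at 54.12 FPKM in WT and 31.01 FPKM in MEIS2-/- cells. TM7SF2, a sterol C14 reductase whose exons overlap those of VPS51, was higher in MEIS2-/- cells, at 47.56 FPKM and 83.10 FPKM (log2 fold change 0.80). LBR, the lamin B receptor, which has the same reductase activity, was at 17.40 FPKM and 19.52 FPKM (log2 fold change 0.16). Hence neither C14 reductase shared the lower level of its pathway neighbors. MSMO1, the C4 methyl oxidase, was at 147.43 FPKM and 56.01 FPKM. Its log2 fold change of -1.39 was the largest difference after HMGCS1 among the enzymes. Its partners in C4 demethylation differed less, with NSDHL at 36.54 FPKM and 31.19 FPKM and HSD17B7 at 23.79 FPKM and 15.62 FPKM. ERG28, a scaffold of this complex that is not among the 30 members, was at 55.05 FPKM and 34.47 FPKM (log2 fold change -0.67).

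The last steps were all below WT. EBP, the sterol isomerase, was at 102.37 FPKM in WT and 74.15 FPKM in MEIS2-/- cells. SC5D, the C5 desaturase, kept 56.4% of its WT level, at 30.65 FPKM and 17.28 FPKM. DHCR7, 7-dehydrocholesterol reductase, kept 60.8%, at 150.98 FPKM and 91.87 FPKM. Of the whole pathway, NSDHL was the lower enzyme nearest to its WT level, with 85.4% kept.

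**Figure D2:**
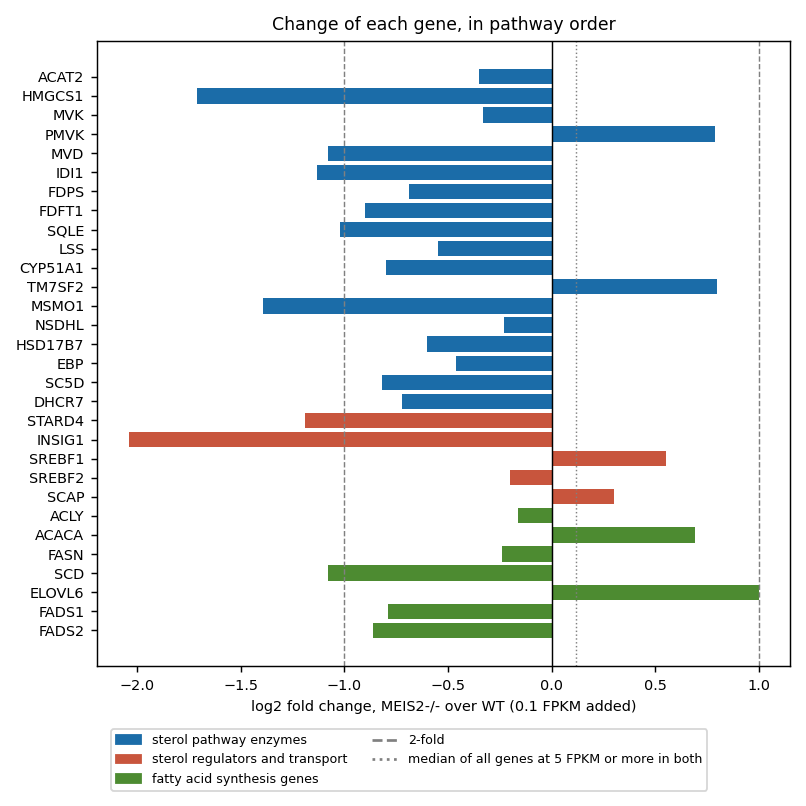
Bars are log2 fold changes of MEIS2-/- over WT for the 30 genes in pathway order, colored by group, with dashed lines at 2-fold and a dotted line at 0.12, the median of genes of at least 5 FPKM in each library. PMVK and TM7SF2 are the 2 sterol enzymes above 0, and ELOVL6 reaches 1.0.

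The regulators differed by role. INSIG1, the membrane protein that retains SCAP and SREBP in the endoplasmic reticulum and is itself a well-known SREBP target, was at 100.91 FPKM in WT and 24.54 FPKM in MEIS2-/- cells. This log2 fold change of -2.04 was the lowest of the 30, and 1.1% of genes at 10 FPKM or more were as low. INSIG2, its relative outside the set, was at 8.74 FPKM and 2.85 FPKM (log2 fold change -1.58), so both INSIG genes were lower. STARD4, a cytosolic sterol carrier, was at 18.36 FPKM and 8.01 FPKM (log2 fold change -1.19).

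The SREBP genes and their escort differed much less. SREBF2, which encodes SREBP2, was at 120.43 FPKM in WT and 104.62 FPKM in MEIS2-/- cells (log2 fold change -0.20). SREBF1, which encodes SREBP1, was higher in MEIS2-/- cells, at 41.38 FPKM and 60.58 FPKM (log2 fold change 0.55). SCAP, which carries SREBPs to the Golgi, was at 30.92 FPKM and 38.13 FPKM (log2 fold change 0.30). SREBF2 mRNA was thus 2.91 times SREBF1 mRNA in WT cells and 1.73 times in MEIS2-/- cells, while INSIG1 mRNA was 0.84 times and then 0.23 times that of SREBF2. SREBP activity depends on cleavage of the protein, which mRNA levels do not show.

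Levels of the fatty acid genes ranged widely. FADS2, SCD and FASN were the 3 highest members in both libraries, whereas ACACA ranked 29 of 30 in WT and 26 in MEIS2-/- cells, and the 7 genes together summed to 1585.20 FPKM in WT and 1065.03 FPKM in MEIS2-/- cells. Among the enzymes that build palmitate, ACLY, which releases acetyl-CoA from citrate, was at 167.86 FPKM and 150.49 FPKM, and FASN, fatty acid synthase, was at 414.89 FPKM and 351.89 FPKM. ACACA, acetyl-CoA carboxylase, was higher in MEIS2-/- cells, at 12.29 FPKM and 19.82 FPKM (log2 fold change 0.69).

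The genes that modify the finished chain differed more. SCD, which puts the first double bond into stearate and palmitate, was at 433.77 FPKM in WT and 205.57 FPKM in MEIS2-/- cells (log2 fold change -1.08). SCD was level with FASN in WT cells, with a ratio of 1.05, and below it in MEIS2-/- cells, with a ratio of 0.58. ELOVL6, which lengthens palmitate to stearate, went the other way, at 19.22 FPKM and 38.61 FPKM. Its log2 fold change of 1.0 lies on the 2-fold line, and was 0.89 with the libraries centered on the median gene. The polyunsaturated fatty acid desaturases were both lower. FADS1 was at 91.41 FPKM and 52.74 FPKM, FADS2 was at 445.76 FPKM and 245.91 FPKM, and the ratio of FADS2 to FADS1 was 4.88 in WT cells and 4.66 in MEIS2-/- cells. Their neighbor and relative FADS3 was at 24.41 FPKM and 19.70 FPKM (log2 fold change -0.31).

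Set beside each other, 16 of 18 sterol enzymes (88.9%) and 5 of 7 fatty acid genes (71.4%) were lower, beside 40.6% of all genes compared. At least 2-fold lower were 5 of the 18 and 1 of the 7, beside 6.24% of genes reaching 10 FPKM, and the 1 fatty acid gene, SCD, is left out when members with named pseudogenes or overlapping genes are. No difference between the branches was tested. Relative to the shift of 0.12, the medians were -0.82 for sterol enzymes, -0.32 for regulators and -0.35 for fatty acid genes. The sterol enzymes held 0.43% of all FPKM in WT and 0.26% in MEIS2-/- cells, and the fatty acid genes 0.35% and 0.24%. Across the 30 members, the order of levels was largely kept between the libraries, with a Spearman rho of 0.86. Between the WT level and the log2 fold change, rho was -0.40. These values are over genes that share the 2 libraries and are descriptions, and the WT level enters both sides of the second.

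Some members share sequence or exons with other genes. RefSeq names 10 pseudogenes for FDPS, 3 each for IDI1 and CYP51A1, 2 for HSD17B7 and 1 for SCD, and none of these is listed in the tables. In the GENCODE 29 annotation, exons of ACAT2 overlap TCP1 and SOD2 on the opposite strand, MVK overlaps MMAB, SREBF1 overlaps RAI1, and FADS1 and FADS2 overlap each other, also on opposite strands. On the same strand, TM7SF2 overlaps VPS51 and FADS2 overlaps FEN1. The sources do not state that strand was used, so reads that fall within the shared bases may not be told apart. How much of each gene is shared was not measured. TCP1 was at 76.48 FPKM in WT and 109.28 FPKM in MEIS2-/- cells, and VPS51 at 73.44 FPKM and 91.65 FPKM. Without these 11 members, the sterol median was -0.82 with 4 genes at least 2-fold lower. The fatty acid median of 0.26 was then over ACLY, ACACA, FASN and ELOVL6.

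Of 87 genes in 5 further lists, 80 reached 1 FPKM in either library, with a median log2 fold change of -0.04. At least 2-fold lower were 3 of the 80, beside 7.97% of all genes compared, and 4 were at least 2-fold higher, beside 7.84%. The higher count was 0 among genes reaching 10 FPKM in either library. ACSS2, which makes acetyl-CoA from acetate, was at 61.81 FPKM in WT and 21.87 FPKM in MEIS2-/- cells (log2 fold change -1.49). NPC1, which exports cholesterol from lysosomes, was at 25.32 FPKM and 12.29 FPKM (log2 fold change -1.04). INSIG2, given above, was the other lower gene. Higher were ABCA1, the exporter of cholesterol to apolipoproteins, at 3.89 FPKM and 9.38 FPKM, and GPAM, which starts triglyceride synthesis, at 2.29 FPKM and 5.43 FPKM, with log2 fold changes of 1.25 and 1.21. The other 2 higher genes stayed below 5 FPKM.

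By list, the genes of SREBP processing and its cofactors had a median of 0.14 over 12 genes, and the site proteases MBTPS1 and MBTPS2 were both at 0.18. NF-Y subunit genes were not lower as a group, with NFYA at -0.05, NFYB at 0.11 and NFYC at 0.93 in log2 fold change. Sterol uptake, esterification and efflux had a median of -0.22 over 13 genes. Isoprenoid and related branches had a median of 0.06 over 13 genes, which turned to -0.06 with the libraries centered on the median gene. The other fatty acid and lipid synthesis genes had a median of -0.23 over 25 genes, close to the -0.24 of the 7 fatty acid members. Fatty acid oxidation had -0.05 over 17 genes. At least 2-fold different were 0 of these 17 and 0 of the 13 isoprenoid genes, beside 7.97% lower and 7.84% higher among all genes compared. SLC25A1, which exports citrate from mitochondria, was at 253.04 FPKM in WT and 212.12 FPKM in MEIS2-/- cells.

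Markers of cell types and of culture state differed between the same 2 libraries. The 9 endothelium and hemogenic endothelium markers were lower in 8 cases, and summed to 746.21 FPKM in WT and 417.36 FPKM in MEIS2-/- cells. Without SOX17, which also marks endoderm, the 8 others summed to 605.20 FPKM and 153.33 FPKM. All 8 endoderm markers were higher, with sums of 600.94 FPKM and 1285.34 FPKM, most of it APOA1 at 401.38 FPKM and 879.13 FPKM. For pluripotency, 5 of 6 markers passed 1 FPKM and all 5 were higher, with sums over all 6 of 514.06 FPKM and 1780.29 FPKM. Most of each sum was POU5F1, at 285.65 FPKM and 1454.14 FPKM. LIN28A, with a log2 fold change of 0.13, was close to the median gene at 0.12. SOX2 was at 0.09 FPKM and 0.15 FPKM. Of 6 mesoderm markers 4 were lower, with sums of 613.44 FPKM and 432.33 FPKM. Among the 4, MESP1 was at least 2-fold lower, at 8.12 FPKM and 3.09 FPKM. The other 2 were at least 2-fold higher, TBXT at 2.44 FPKM and 10.74 FPKM and MIXL1 at 2.33 FPKM and 6.47 FPKM. The 4 hematopoietic surface markers summed to only 7.65 FPKM and 4.2 FPKM. Hypoxia and glycolysis genes were lower in 7 of 7 cases above 1 FPKM, with sums over all 8 of 4337.81 FPKM and 1612.93 FPKM. ENO1 alone was at 2617.47 FPKM and 1200.26 FPKM. No marker was listed at 0 in either library. The part of these markers in the lower sterol gene levels was not tested. In whole cultures, fewer cells of a type and less RNA per cell cannot be told apart, and with 1 culture per genotype neither can genotype and culture.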

How the data were processed

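RNA-Seq was performed by BGI on 2 libraries, 1 WT and 1 MEIS2-/-. The deposited tables give FPKM at 2 decimals for 17397 genes under NCBI Gene numbers and RefSeq transcripts. The submitters' processing notes name BWA, Bowtie, RSEM and hg19, with no versions or roles. Of the genes, 17365 were matched to a RefSeq symbol (GRCh38.p14 table, used for names only). Total reads are not in the tables. Low FPKM of genes listed with 1 transcript agreed only in part with whole-read steps (0.25 in WT and 0.40 in MEIS2-/-, where 1 is complete), so depth is unknown and no counting interval is given.

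Log2 fold changes used a pseudocount of 0.1 FPKM over the 13075 genes reaching 1 FPKM in either library, and a difference of 2-fold was counted. A pseudocount understates the change of low genes. No test is possible with 1 library per genotype. The members and lists were chosen with earlier results of these data known. Named genes are all 30 members and MEIS2. Also named are genes of the 5 other lipid lists that were at least 2-fold different and at 5 FPKM or more in 1 library. Of the cell type markers only some are named, and the rest enter only the counts and sums. LBR, ERG28, FADS3, SLC25A1, the genes of SREBP cleavage and NF-Y, and the genes whose exons overlap members were named after their values were seen. Promoter windows came from RefSeq on GRCh38.p14, and overlaps from GENCODE 29 on GRCh38. The computation was checked on changes planted in the deposited values. Python 3.11.15, numpy 2.4.6, pandas 2.3.3 and matplotlib 3.10.9 were used. Alternatives were pseudocounts of 1 and 0.01 FPKM, no filter, filters at 5 and 10 FPKM, rescaling to a median log2 ratio of 0 or by the trimmed mean of log ratios (trimming 30% of ratios and 5% of levels on each side), lines at 1.5-fold and 4-fold, and leaving out members with pseudogenes or overlapping genes.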

Additional observations from a re-analysis of the deposited data

How the results depend on the processing

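No paired analysis was possible because each genotype has 1 library, and for the same reason no replicate could be left out. Filters only select genes and cannot alter a member's value, so agreement across them was fixed in advance. Each scaling subtracts the same constant from every gene. Over 7 settings of pseudocount, filter and scaling, 210 values of single members were recomputed, of which 0 changed direction and 205 stayed on their side of the 2-fold line. The exceptions were ELOVL6, which dropped below the line with a pseudocount of 1 FPKM (0.97), with the median log2 ratio set to 0 (0.89) and with the trimmed mean (0.90), and FDFT1, which passed it under the same scalings (-1.02 and -1.01). The number of fatty acid genes at least 2-fold higher was then 0. These scalings moved the median of the regulators to -0.32 and -0.31, that of the 5 other lipid lists to -0.15 and -0.14, and that of the isoprenoid list to -0.06 and -0.05, a change of sign. The median of the other lipid lists was -0.01 with no filter, -0.08 with a filter at 5 FPKM and -0.19 at 10 FPKM, and their number of at least 2-fold higher genes was 1 with a pseudocount of 1 FPKM, 2 with a filter at 5 FPKM and 0 at 10 FPKM. At 1.5-fold, 11 of 18 sterol enzymes were lower and 2 higher, and 3 of 7 fatty acid genes lower and 2 higher. Of the 80 genes of the other lipid lists, 12 were lower and 11 higher. Among all genes compared, 14.5% were lower and 18% higher at this line. At 4-fold the member and list numbers were all 0, and INSIG1 was the 1 regulator left. Only 1.84% of all genes compared were lower and 1.48% higher at that line. Leaving out the 11 members with named pseudogenes or overlapping genes, an alternative added after the data were seen like the filter at 10 FPKM, moved the regulators' median to -0.69, left 0 fatty acid genes at least 2-fold lower and turned their median to 0.26. Among all genes, the number at least 2-fold lower was 693 with a pseudocount of 1 FPKM and 1516 with no filter, against 1042, and the number higher was 623 and 1567, against 1025. Depth and the spread between cultures are unknown, which limits every value.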
